A study of Mus musculus with 84 samples.

Results

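Genes of cholesterol synthesis and of fatty acid and triglyceride synthesis were examined in the livers of mice fed organophosphate pesticides (OPPs). The set was a list of 43 symbols of known targets of the SREBP and ChREBP transcription factors, 23 of the sterol branch and 20 of the fatty acid branch. A listed gene was kept if its median count over all mice was above 8. This left 41 genes, 22 of the sterol and 19 of the fatty acid branch, of the 10415 genes above that limit and the 17695 genes in the count table. The count limit used overall abundance only and no difference between groups. The list itself was chosen with earlier results of these data known. Livers came from 84 male B6C3F1 mice, 8 weeks old, which ate AIN-93G diet for 7 days. The diet held no OPP (Con0ppm), Fenthion (FT) at 2.5, 5, 10 or 20 ppm, Methidathion (MT) at 10, 25, 50 or 100 ppm, or Parathion (PT) at 20, 40 or 80 ppm, with 7 mice in each of the 12 groups. Groups are named by agent and dose, as in PT80ppm. The paper states that a higher PT dose was also fed and was excluded because of illness and deaths. It also reports lower body and relative liver weight with PT at 40 and 80 ppm, and with neither other OPP. The part of these weight changes in the results was not tested. The animals were handled in blocks numbered 1, 3 and 4, from which a group drew 2, 3 and 2 mice. Each library was 1 mouse, so the replicates are separate animals. According to the paper, mice shared cages and whole cages were assigned to the diets. The labels do not give the cage, so cage mates could not be taken into account. RNA was from a mixture of liver lobes and was isolated by EA, as the labels name it, except for 2 mice each of Con0ppm, FT20ppm and MT100ppm and 1 of MT10ppm, whose RNA EPA isolated.

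Hepatocytes make cholesterol from acetyl-CoA through mevalonate, squalene and lanosterol, and make fatty acids from the same acetyl-CoA through malonyl-CoA. Srebf2 encodes the SREBP protein that mainly drives the sterol enzymes when cell sterol is low. Srebf1 encodes the form that mainly drives fatty acid synthesis under insulin, and Mlxipl encodes ChREBP, which responds to glucose metabolites. Insig1 holds SREBP in the endoplasmic reticulum when sterol is plentiful and is itself an SREBP target, so its mRNA usually moves with the sterol enzymes. The liver is the main site of both pathways.

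Expression was measured by TempO-Seq, in which pairs of short probes are ligated on the mRNA and the ligated products are sequenced. Values are CPM, the counts of a gene scaled to a common total of all counts in a mouse. A probe reads 1 short stretch with its own efficiency, so levels are compared between mice and not between genes. Total counts lay between 6950381 and 15300589 per mouse. A count of 3, taken as the floor of measurement, equals 0.196 to 0.432 CPM, and this covers counting error only. All 10 hepatocyte markers on a marker list were above the count limit, and all 5 adipocyte markers had a median count of 0 (Adipoq, Cfd, Plin1, Retn and Lep). Summed adipocyte marker levels were at most 0.534 CPM in control mice, but 29.3 CPM in FT5ppm replicate 1 and 9.19 CPM in PT80ppm replicate 1. Both block 1 mice of PT80ppm, replicates 1 and 2, stood apart in the sterol genes, and results at PT80ppm are given with and without them. Fewer cells of a type and less RNA per cell cannot be told apart in whole liver.

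Differences from control were fitted with edgeR in 1 model of all 84 mice with block and RNA isolator as covariates. They are log2 fold changes with their standard errors (SE). A gene is said to have changed, risen or fallen if its p, adjusted by Benjamini-Hochberg over all 10415 genes, was under 0.05. The 11 comparisons with control share the same 7 control mice and are not independent of each other.

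The region before the transcription start is shown for the 3 members of each branch with the lowest adjusted p at PT80ppm for which RefSeq gave a start, since these members passed the test most clearly. RefSeq windows (GRCm38.p6) matched 18 of the 22 sterol members, without Fdps, Fdft1, Sqle and Stard4. They matched 16 of the 19 fatty acid members, without Scd1, Fads1 and Dgat2. Each line gives the 250 bases before the most upstream annotated start, 5′ to 3′. Capitals mark matches on either strand to 4 motifs. The core of the sterol regulatory element was searched as TCACNCCAC. The E-box, which both SREBP and ChREBP can use, was searched as the palindrome CACGTG. The box bound by the factor NF-Y was searched as CCAAT and the site of the factor Sp1 as GGGCGG, and no pair of these motifs shares bases in the windows shown. The windows lie at chr7:143822917-143823166 (plus strand) for Dhcr7, chr3:89454291-89454540 (plus strand) for Pmvk, chrX:72918271-72918520 (plus strand) for Nsdhl, chr9:77917115-77917364 (plus strand) for Elovl5, chr5:114165268-114165517 (plus strand) for Acacb and chr15:84167566-84167815 (plus strand) for Pnpla3.
Dhcr7: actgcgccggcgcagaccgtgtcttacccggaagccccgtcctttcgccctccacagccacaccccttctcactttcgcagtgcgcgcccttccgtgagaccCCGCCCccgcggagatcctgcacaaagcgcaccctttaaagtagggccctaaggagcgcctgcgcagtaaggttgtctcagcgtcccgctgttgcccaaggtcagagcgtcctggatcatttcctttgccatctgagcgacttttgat
Pmvk: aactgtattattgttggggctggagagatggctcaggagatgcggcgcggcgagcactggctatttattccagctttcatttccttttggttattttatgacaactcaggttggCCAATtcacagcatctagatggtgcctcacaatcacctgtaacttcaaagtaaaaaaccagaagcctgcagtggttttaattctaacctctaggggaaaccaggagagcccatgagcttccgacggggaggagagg
Nsdhl: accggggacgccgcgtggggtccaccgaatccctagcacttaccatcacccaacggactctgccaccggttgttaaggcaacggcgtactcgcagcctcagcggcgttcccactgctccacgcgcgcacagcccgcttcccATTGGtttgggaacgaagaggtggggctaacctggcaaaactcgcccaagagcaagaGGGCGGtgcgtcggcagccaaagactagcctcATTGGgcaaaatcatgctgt
Elovl5: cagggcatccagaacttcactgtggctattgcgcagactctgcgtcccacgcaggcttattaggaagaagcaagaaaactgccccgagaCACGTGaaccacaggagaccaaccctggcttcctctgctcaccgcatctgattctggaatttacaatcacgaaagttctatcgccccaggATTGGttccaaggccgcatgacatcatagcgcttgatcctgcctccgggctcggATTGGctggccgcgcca
Acacb: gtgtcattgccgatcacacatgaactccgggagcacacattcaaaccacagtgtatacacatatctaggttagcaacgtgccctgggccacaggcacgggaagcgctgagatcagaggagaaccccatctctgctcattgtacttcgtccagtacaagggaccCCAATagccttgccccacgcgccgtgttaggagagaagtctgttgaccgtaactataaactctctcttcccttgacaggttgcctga
Pnpla3: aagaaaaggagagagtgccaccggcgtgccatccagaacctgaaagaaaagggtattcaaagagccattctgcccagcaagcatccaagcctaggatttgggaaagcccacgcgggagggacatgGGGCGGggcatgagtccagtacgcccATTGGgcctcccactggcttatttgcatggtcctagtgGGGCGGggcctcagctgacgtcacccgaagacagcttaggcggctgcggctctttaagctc

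The Nsdhl window held a CCAAT box 109 and another 20 bases before the start, with an Sp1 site at 52 bases. The Elovl5 window held an E-box at 161 bases and CCAAT boxes at 71 and 17 bases. Over all windows of a gene, 17 of the 18 matched sterol members held a CCAAT box and 16 held an Sp1 site, against 37.5% and 35.4% of the 27025 genes with windows. For the matched fatty acid members these numbers were 11 and 8 of 16. The sterol regulatory element core was found in Hmgcs1 of the sterol and Mlxipl of the fatty acid members, and in 1.22% of all genes. The E-box was found in 4 sterol members (Dhcr7, Insig1, Rdh11 and Sc5d) and 2 fatty acid members (Elovl5 and Mlxipl), and in 6.86% of all genes. The shares of all genes are over every gene with a RefSeq window, whether or not it was above the count limit, as the members were. A match in these letters is a description of the window and not a mapped binding site.

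Across the 11 dosed groups, changes in the members were concentrated at the highest PT dose examined. At PT80ppm 26 of the 41 members changed, against 18.6% of all genes tested. At FT10ppm 1 member changed, against 1.57% of all genes. In the other 9 dosed groups no member passed edgeR's test.

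**Figure D1:**
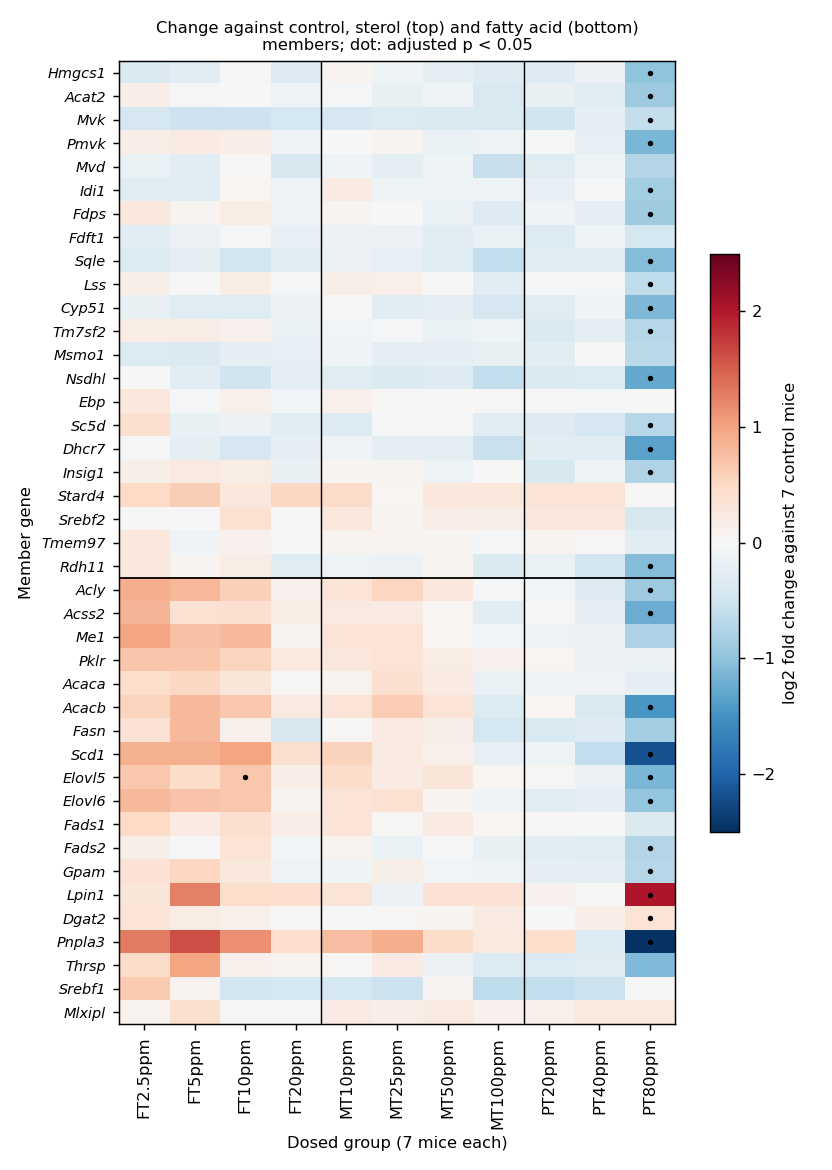
Log2 fold change of the 41 members (rows, sterol above the line, fatty acid below it) in the 11 dosed groups (columns, 7 mice each) against the 7 control mice, with a dot where edgeR's adjusted p was under 0.05. The 26 dots at PT80ppm are mostly on lower values, Lpin1 and Dgat2 being the members that were higher, and the 1 other dot is Elovl5 at FT10ppm.

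At PT80ppm the sterol branch was lower as far as it changed: 15 of 22 members fell and none rose, where 8.89% of all genes fell and 9.75% rose. The median log2 fold change of the branch was -0.74. Of the sterol members that changed, 7 fell by at least 2-fold, and over both branches 13 did so or rose by that much, against 3.30% of all genes. The falls were spread over the pathway, with 6 of 7 enzymes of the mevalonate steps, 2 of 3 enzymes from farnesyl diphosphate to lanosterol, and 5 of 7 from lanosterol to cholesterol. DESeq2 called 15 sterol members in the same comparison and limma 16, and the shares of all genes these tools called are not given.

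Among the mevalonate enzymes, Pmvk, which phosphorylates phosphomevalonate, lay at 66.8, 100.0 and 133 CPM (lowest, median and highest mouse) in control and at 16.8, 43.1 and 118 CPM at PT80ppm. It fell with a log2 fold change of -1.14 (SE 0.22, edgeR adjusted p = 7.25e-05). The groups overlapped because replicate 3 of PT80ppm, at 118 CPM, lay inside the control range. Acat2, the cytosolic thiolase that joins acetyl-CoA units, went from 58.5, 72.5 and 96.2 CPM in control to 20.1, 43.5 and 83.9 CPM. Its log2 fold change was -0.91 (SE 0.19, edgeR adjusted p = 0.000272), and replicate 3 was again the mouse within the control range. Fdps, which makes farnesyl diphosphate, lay at 237, 317 and 427 CPM in control and 56.7, 172 and 388 CPM at PT80ppm, with a log2 fold change of -0.89 (SE 0.21, edgeR adjusted p = 0.00143). Hmgcs1, Mvk and Idi1 also fell, with log2 fold changes of -1.01, -0.59 and -0.87. Idi1, the isopentenyl diphosphate isomerase, had the widest spread of these, from 20.95 CPM in replicate 1 to 603 CPM in replicate 6. Mvd, at a control median of 1.96 CPM, had a log2 fold change of -0.74 (SE 0.37, edgeR adjusted p = 0.165) and did not pass.

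Of the enzymes from farnesyl diphosphate to lanosterol, Sqle, the squalene epoxidase, lay at 75.4, 99.6 and 130.2 CPM in control and 5.52, 49.9 and 95.97 CPM at PT80ppm. It fell with a log2 fold change of -1.08 (SE 0.30, edgeR adjusted p = 0.007). Its low values were those of replicates 1 and 2, at 5.52 and 10.7 CPM, while the other 5 mice lay at 49.8 CPM or higher. Lss, the lanosterol synthase, fell to a log2 fold change of -0.64, and Fdft1, the squalene synthase, did not pass at -0.45 (SE 0.22, edgeR adjusted p = 0.151).

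Of the enzymes that turn lanosterol into cholesterol, Dhcr7, which reduces the last double bond to give cholesterol, had the lowest adjusted p of all members. It lay at 26.7, 39.5 and 53.4 CPM in control and 7.45, 17.4 and 33.5 CPM at PT80ppm, a log2 fold change of -1.33 (SE 0.20, edgeR adjusted p = 1.02e-06). The 6 PT80ppm mice other than replicate 3 lay below the whole control range. Nsdhl, which removes methyl groups from the sterol ring, lay at 21.4, 26.6 and 38.5 CPM in control and 2.02, 13.6 and 29.1 CPM at PT80ppm. Its log2 fold change was -1.28 (SE 0.26, edgeR adjusted p = 0.000145), and replicate 3 was the 1 mouse inside the control range. Cyp51, the lanosterol demethylase, lay at 25.4, 30.7 and 46.02 CPM in control and 2.94, 20.8 and 24.9 CPM at PT80ppm. The groups did not overlap and the log2 fold change was -1.13 (SE 0.23, edgeR adjusted p = 0.000154). Tm7sf2, a sterol reductase, had a log2 fold change of -0.71 (SE 0.19, edgeR adjusted p = 0.00487), with 18.6, 25.3 and 39.7 CPM in control and 4.60, 18.01 and 30.9 CPM at PT80ppm. Sc5d, a sterol desaturase, fell with a log2 fold change of -0.72. Msmo1 was at -0.68 (SE 0.27, edgeR adjusted p = 0.0695) and Ebp, the sterol isomerase, at 0.01 (SE 0.14, edgeR adjusted p = 0.983), so neither passed.

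The sterol regulators and transport genes were split. Insig1 lay at 104, 128 and 263 CPM in control and 28.6, 72.9 and 230.2 CPM at PT80ppm, and fell with a log2 fold change of -0.75 (SE 0.26, edgeR adjusted p = 0.034). Rdh11, a retinaldehyde reductase that SREBP also drives, lay at 2.22, 3.45 and 4.88 CPM in control and 1.12, 1.48 and 2.37 CPM at PT80ppm. It fell with a log2 fold change of -1.09 (SE 0.30, edgeR adjusted p = 0.00569), from counts of 26 to 56 to counts of 13 to 26. Srebf2 lay at 0.704, 2.57 and 3.15 CPM in control and 0.176, 1.93 and 2.60 CPM at PT80ppm and did not pass, at -0.40 (SE 0.25, edgeR adjusted p = 0.291). Its lowest PT80ppm mouse, replicate 3, had 2 counts, under the floor of 3. Stard4, a sterol carrier, was at 0.03 (SE 0.31, edgeR adjusted p = 0.959) and Tmem97 at -0.25 (SE 0.15, edgeR adjusted p = 0.236).

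The fall of the sterol genes was deepest in the mice of block 1. In 19 of the 22 sterol members both block 1 mice of PT80ppm lay below the other 5 mice of that group, and in 16 members they lay below all 82 other mice of the study. The other 5 PT80ppm mice lay below all 7 control mice in 1 sterol member, Cyp51. These counts, and those of the fatty acid branch below, were not taken over all genes. They are therefore not shown to be particular to the members. As a summary per mouse, the log2 ratio of CPM + 1 to the control mean + 1 was taken for each member, and the median over the sterol members is given. It was -2.25 in replicate 1, -1.62 in replicate 2 and between -0.78 and -0.04 in the other 5, while control mice lay between -0.18 and 0.25. In each of the other 10 dosed groups 1 to 4 of 7 mice also lay below the lowest control mouse, 28 of 70 in all, with the lowest values at -0.76 in PT20ppm and -0.72 in MT100ppm. At FT2.5ppm, MT50ppm, MT100ppm and PT20ppm both block 1 mice, 2 of 2, lay below the lowest control mouse. At FT10ppm and FT20ppm 1 block 1 mouse did, and at FT5ppm, MT10ppm, MT25ppm and PT40ppm 0 did. The block 1 mice of PT40ppm, at -0.07 and -0.03, were within the control range. Replicate 1 is the mouse with 9.19 CPM of adipocyte markers. The part of these markers in the result was not tested.

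**Figure D2:**
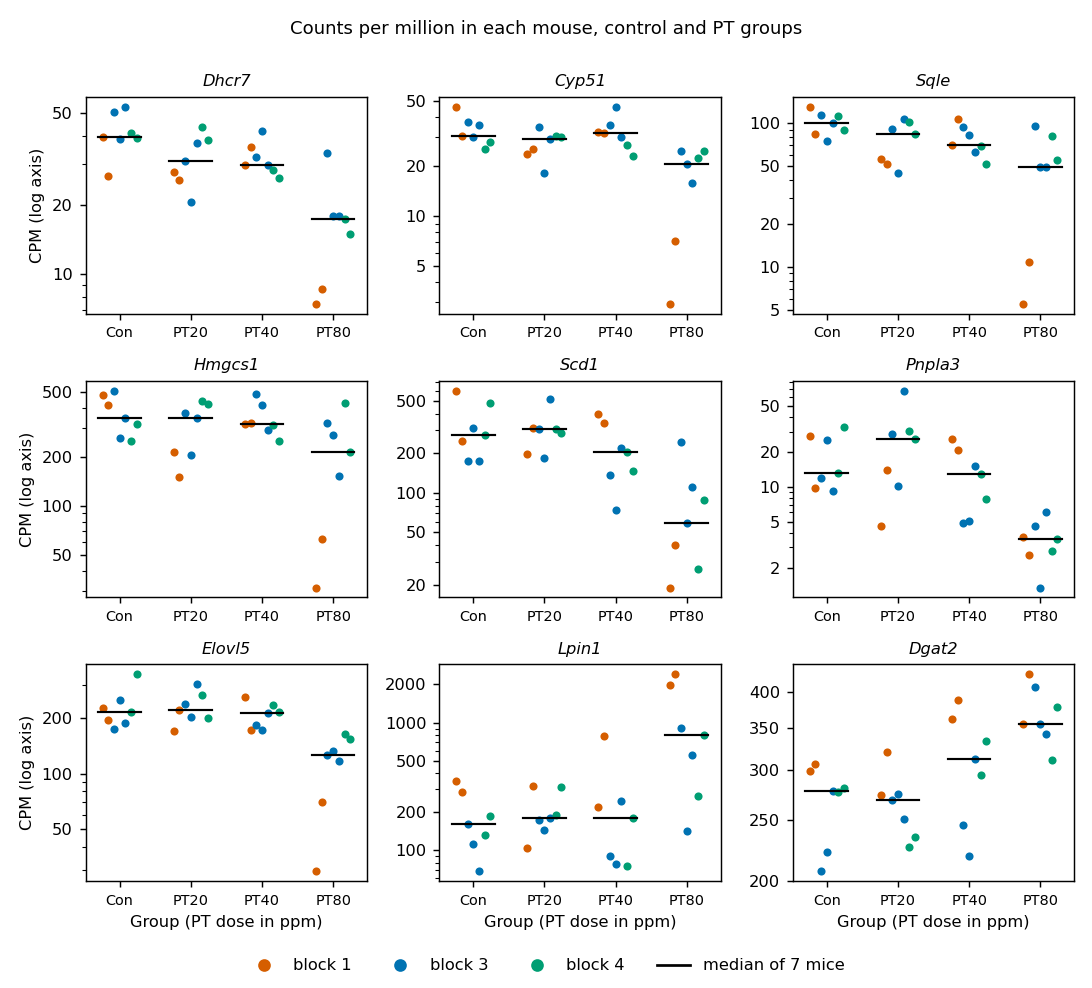
CPM on a log axis (vertical) for 9 members in each mouse of control and the PT groups (horizontal), coloured by block, with a line at the median of 7 mice. For Dhcr7, Cyp51, Sqle and Hmgcs1 both block 1 mice lie lowest at PT80ppm, for Pnpla3 all 7 PT80ppm mice lie below control, and for Lpin1 both block 1 mice lie highest.

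**Figure D3:**
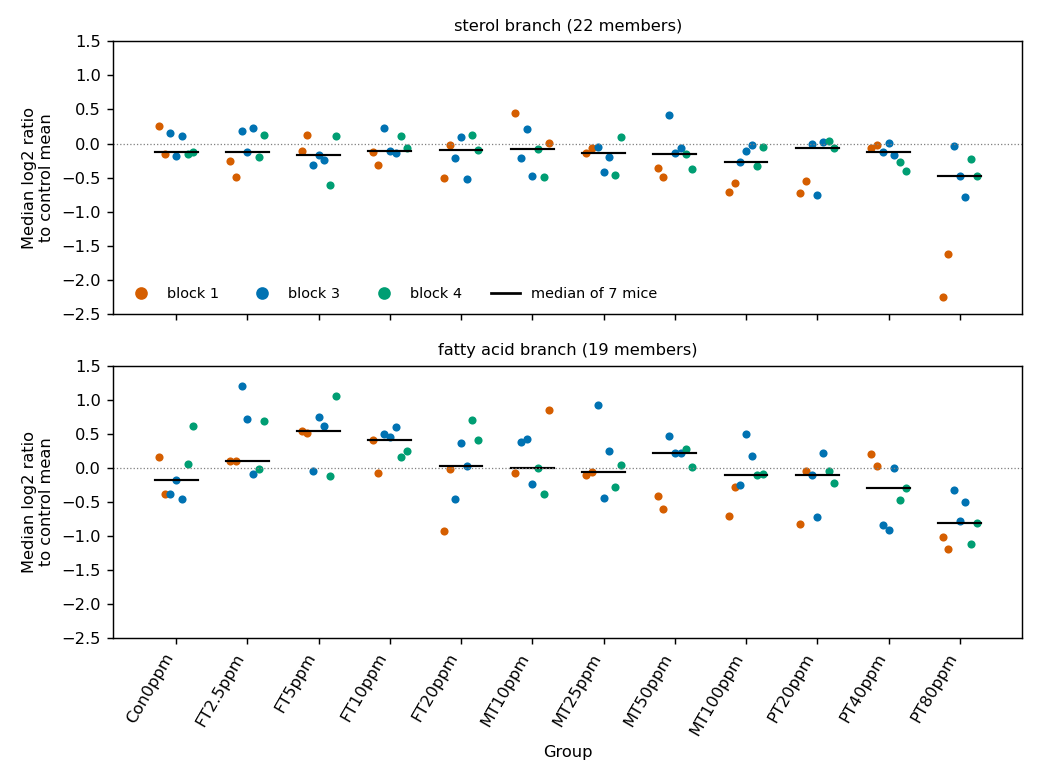
Median over the members of each branch of the log2 ratio of a mouse's CPM + 1 to the control mean + 1 (vertical) in all 84 mice by group (horizontal), coloured by block, with a line at the median of 7 mice. At PT80ppm both block 1 mice stand at -2.25 and -1.62 in the sterol branch, whereas in the fatty acid branch all 7 mice lie between -1.19 and -0.33.

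In the fatty acid branch 11 of 19 members changed at PT80ppm, 9 lower and 2 higher, with a median log2 fold change of -0.76. DESeq2 called 11 fatty acid members and limma 10, again without the shares of all genes. Of the genes of desaturation and elongation 4 of 5 fell. Supply of acetyl-CoA and NADPH had 2 of 4 genes lower, the synthesis enzymes 1 of 3, and glycerolipid assembly 2 lower and 2 higher of 4. The 3 regulators did not pass. In contrast to the sterol genes, both block 1 mice lay below the other 5 PT80ppm mice in 5 of 19 members and below all 82 other mice in 3 (Acly, Elovl5 and Gpam).

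Scd1, the stearoyl-CoA desaturase that makes monounsaturated fatty acids, lay at 176, 274 and 603 CPM in control and 19.03, 59.5 and 243 CPM at PT80ppm. Its log2 fold change was -2.18 (SE 0.37, edgeR adjusted p = 1.23e-05), and replicate 3, at 243 CPM, was the 1 mouse within the control range. Elovl5, an elongase of polyunsaturated fatty acids, lay at 173, 215 and 344 CPM in control and 29.6, 126 and 163 CPM at PT80ppm, with no overlap, a log2 fold change of -1.13 (SE 0.19, edgeR adjusted p = 1.17e-05). Elovl6, the elongase of palmitate, had a log2 fold change of -0.96 (SE 0.30, edgeR adjusted p = 0.0156) and lay at 32.6, 50.8 and 71.1 CPM against 51.9, 89.2 and 149 CPM in control. Fads2, a desaturase of polyunsaturated fatty acids, lay at 721, 1083 and 1242 CPM in control and 156, 647 and 804 CPM at PT80ppm, a log2 fold change of -0.74 (SE 0.20, edgeR adjusted p = 0.00456). Its lowest value was that of replicate 1 and the other 6 mice lay at 569 CPM or higher. Fads1, which acts after Fads2 in the same pathway, was at -0.36 (SE 0.14, edgeR adjusted p = 0.0592) and did not pass.

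Acacb, the acetyl-CoA carboxylase on the mitochondrial membrane, lay at 3.38, 5.25 and 11.3 CPM in control and 1.19, 2.004 and 5.19 CPM at PT80ppm. Its log2 fold change was -1.45 (SE 0.32, edgeR adjusted p = 0.000692). The cytosolic carboxylase Acaca, at -0.24 (SE 0.23, edgeR adjusted p = 0.522), and the fatty acid synthase Fasn, at -0.85 (SE 0.37, edgeR adjusted p = 0.0941), did not pass. Fasn lay at 40.9, 57.9 and 186 CPM in control and 22.9, 32.7 and 97.8 CPM at PT80ppm, so the groups overlapped widely. Acss2, which makes acetyl-CoA from acetate, lay at 3.42, 7.56 and 12.8 CPM in control and 1.83, 2.94 and 6.16 CPM at PT80ppm, with a log2 fold change of -1.23 (SE 0.29, edgeR adjusted p = 0.00113). Acly, which cleaves citrate to acetyl-CoA, had a log2 fold change of -0.91 (SE 0.28, edgeR adjusted p = 0.0148), with 171, 263 and 620.0 CPM in control and 101, 128 and 265 CPM at PT80ppm. Malic enzyme Me1, a source of NADPH, was at -0.76 (SE 0.29, edgeR adjusted p = 0.0539) and the pyruvate kinase Pklr at -0.15 (SE 0.30, edgeR adjusted p = 0.8). Pklr was at 205 CPM in replicate 1 and between 24.7 and 71.8 CPM in the other 6 PT80ppm mice.

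In glycerolipid assembly, Pnpla3, a lipid droplet hydrolase, had the largest fall of all members. It lay at 9.25, 13.2 and 32.6 CPM in control and 1.34, 3.55 and 6.005 CPM at PT80ppm, without overlap, and its log2 fold change was -2.47 (SE 0.56, edgeR adjusted p = 0.0008). Gpam, which starts glycerolipid synthesis on the mitochondrion, had a log2 fold change of -0.70 (SE 0.21, edgeR adjusted p = 0.0138), with 43.7, 55.9 and 97.3 CPM in control and 21.97, 33.4 and 77.3 CPM at PT80ppm. Lpin1, a phosphatidate phosphatase that also acts as a nuclear coactivator, rose. It lay at 68.3, 161 and 348 CPM in control and 141, 799.7 and 2399 CPM at PT80ppm, a log2 fold change of 2.03 (SE 0.47, edgeR adjusted p = 0.000934). The rise was uneven: block 1 held the highest mice, at 1978 and 2399 CPM, and replicates 4 and 6, at 141 and 265 CPM, lay inside the control range. Dgat2, which adds the last acyl chain of triglyceride, rose by a small but even step from 207, 278 and 307 CPM to 311, 356 and 426 CPM, without overlap. The log2 fold change of Dgat2 was 0.35 (SE 0.09, edgeR adjusted p = 0.00372). Over all genes, 1.44% did not overlap between control and PT80ppm, and the members among them were Cyp51, Elovl5 and Pnpla3, lower, and Dgat2, higher.

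The mRNAs of the lipogenic transcription factors did not pass at PT80ppm. Srebf1 lay at 1.05, 1.49 and 4.98 CPM in control and 0.431, 1.60 and 2.57 CPM at PT80ppm, a log2 fold change of 0.01 (SE 0.35, edgeR adjusted p = 0.991) whose sign turned under several other settings, with DESeq2 giving -0.030. Mlxipl lay at 15.8, 19.7 and 32.03 CPM in control and 16.99, 22.8 and 34.6 CPM at PT80ppm, at 0.24 (SE 0.14, edgeR adjusted p = 0.262). Thrsp, a nuclear lipogenic protein, was at -1.10 (SE 0.44, edgeR adjusted p = 0.0703). The activity of SREBP and ChREBP depends on protein processing and was not measured.

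Leaving out both block 1 mice of PT80ppm, an alternative chosen after the values were seen, left 13 of 41 members changed, where 8.50% of all genes then passed. The sterol branch kept 6 of its 15 (Acat2, Pmvk, Fdps, Cyp51, Nsdhl and Dhcr7) and its median log2 fold change went from -0.74 to -0.46. The fatty acid branch kept 7 of its 11 (Acss2, Acacb, Scd1, Elovl5, Lpin1, Dgat2 and Pnpla3) and its median went from -0.76 to -0.74. Without these mice Dhcr7 was at -1.06 (SE 0.21, edgeR adjusted p = 0.000241), Pnpla3 at -2.60 (SE 0.65, edgeR adjusted p = 0.00534) and Lpin1 at 1.53 (SE 0.49, edgeR adjusted p = 0.0337). Sqle was at -0.62 (SE 0.27, edgeR adjusted p = 0.146) and Hmgcs1 at -0.58 (SE 0.31, edgeR adjusted p = 0.263), and neither passed. With blocks 3 and 4 only, in control as in dosed mice, 11 members changed, 4 of them sterol, and 7.11% of all genes.

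Within blocks, mean CPM at PT80ppm was set against control among mice whose RNA EA isolated, which are 2, 2 and 1 control mice and 2, 3 and 2 PT80ppm mice in blocks 1, 3 and 4. The median log2 ratio of the sterol members was -2.13 in block 1, -0.44 in block 3 and -0.26 in block 4, with 20, 19 and 14 of 22 members below 0. For the fatty acid members it was -0.96, -0.20 and -1.73, with 13, 12 and 16 of 19 below 0. The block 4 ratios rest on 1 control mouse, replicate 7. Its fatty acid branch median per mouse, 0.61, was the highest of the control mice. Dhcr7 was lower in each block, at -2.04, -0.99 and -1.28 on the log2 scale, and so was Pnpla3, at -2.57, -2.12 and -3.36. Lpin1 was higher in each, at 2.79, 2.57 and 1.51. Sqle was lower in each block too, but at -3.72 in block 1 against -0.42 and -0.39 in the others. With 1 to 3 mice a side these within-block values have no test. Of the 26 members called, 10 were called under all 23 settings tried at PT80ppm: Pmvk, Nsdhl, Dhcr7, Acss2, Acacb, Scd1, Elovl5, Lpin1, Dgat2 and Pnpla3.

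**Figure D4:**
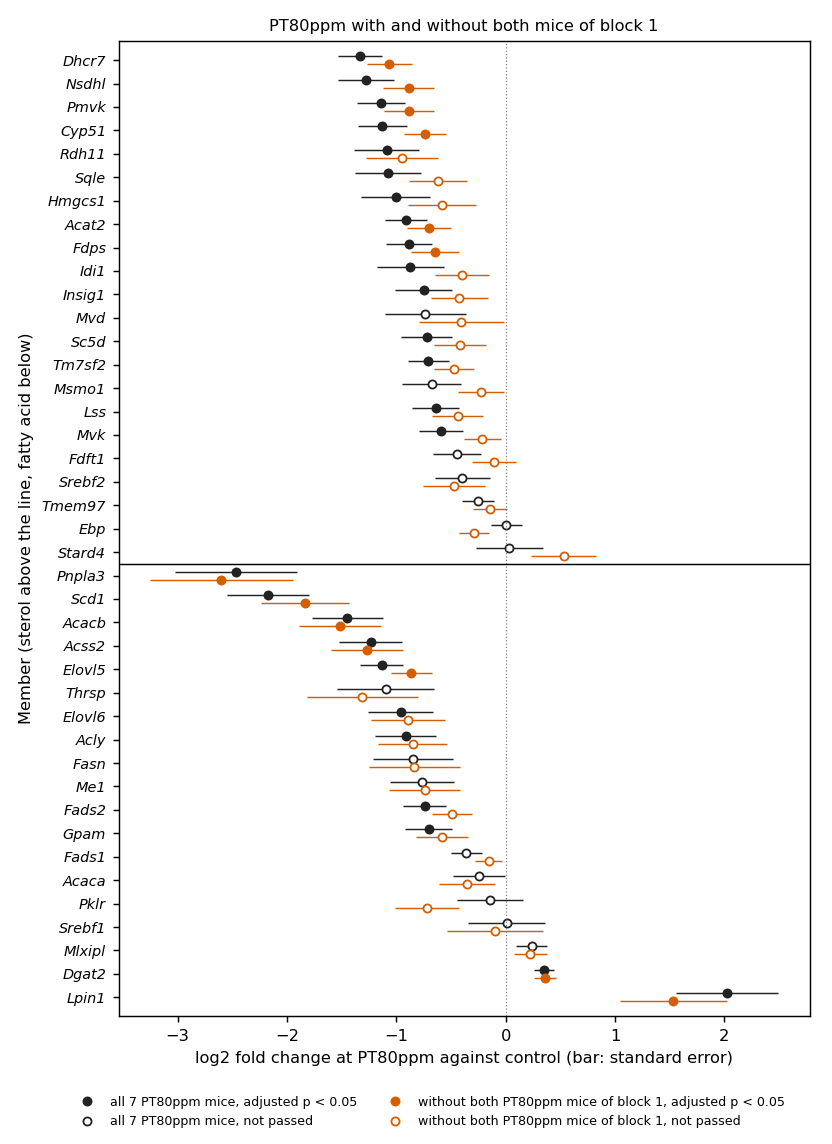
Log2 fold change at PT80ppm against control (horizontal, bars are standard errors) for each member (vertical, sterol above the line), with all 7 PT80ppm mice in black and without both block 1 mice in orange, filled where edgeR's adjusted p was under 0.05. Most sterol members move toward 0 without these mice, 15 filled points becoming 6, and 11 filled fatty acid points become 7, with a branch median of -0.76 in black and -0.74 in orange.

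Other genes of both pathways were taken from further lists that hold no member. Of 20 further sterol genes tested at PT80ppm, 4 rose and 1 fell, with a median of -0.05. This is near the 18.6% of all genes that changed. The genes that rose were Abcg5 (0.95, SE 0.25, edgeR adjusted p = 0.00497) and Abcg8 (0.74, SE 0.15, edgeR adjusted p = 0.000116), which together export sterol into bile, Mylip (0.62, SE 0.15, edgeR adjusted p = 0.00116), which targets the LDL receptor for degradation, and Nr1h2 (0.22, SE 0.07, edgeR adjusted p = 0.0186), a liver X receptor. Insig2, a relative of Insig1, fell with -0.76 (SE 0.22, edgeR adjusted p = 0.00805). Of 24 further lipogenic genes, 10 fell and 4 rose, with a median of -0.34. The largest falls among those of lowest adjusted p were Elovl3, a fatty acid elongase, at -2.70 (SE 0.47, edgeR adjusted p = 1.27e-05) and Plin2, a lipid droplet coat protein, at -1.10 (SE 0.24, edgeR adjusted p = 0.000609). Pgd and Taldo1, of the pentose phosphate pathway that supplies NADPH, fell with -0.82 and -0.46, Elovl1 fell with -0.57, and Dgat1, the other triglyceride synthase, rose with 0.36.

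Counts of cell type markers called at PT80ppm are to be read against the 18.6% of all genes called there. Of 8 Kupffer cell and macrophage markers tested of 10 listed, 3 fell (Cd5l, Clec4f and Cd68) with a median of -0.64, and their summed level was 171 to 348 CPM in control and 69.6 to 261 CPM at PT80ppm. Of 10 hepatocyte markers 3 rose and 2 fell, and the summed level was 76353 to 88310.0 CPM in control and 72623 to 114829 CPM at PT80ppm. Of 6 endothelial markers none passed, at 104 to 139.9 CPM in control and 109 to 150.4 CPM at PT80ppm. Of 6 stellate cell and fibroblast markers 1 rose and 1 fell, at 99.0 to 184 and 93.1 to 162 CPM. Of 5 cholangiocyte markers 1 was tested and fell (Spp1), with a summed level of 56.9 to 130.3 CPM in control and 12.8 to 61.3 CPM at PT80ppm and Epcam at a median of 0. Of 6 lymphocyte markers 2 were tested and 1 fell (Ptprc), at 22.3 to 40.9 and 8.09 to 37.8 CPM. The part of these shifts in the member results was not tested.

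Neither lower PT dose had a member that passed. At PT20ppm no member passed edgeR's test, where 0.00960% of all genes did, and 1 member had an unadjusted p under 0.05, against 5.91% of all genes. The lowest unadjusted p were those of Mvk (-0.49, SE 0.20, edgeR adjusted p = 0.752), Tm7sf2 (-0.37) and Fdft1 (-0.34). At PT40ppm none passed, 0% of all genes did, and no member but 8.51% of all genes had an unadjusted p under 0.05. The lowest p there were those of Sc5d (-0.42, SE 0.23, edgeR adjusted p = 0.632), Dgat2 (0.16) and Mlxipl (0.25). DESeq2 and limma called none in either group, and each gave 1 member at PT20ppm and 0 at PT40ppm with an unadjusted p under 0.05. The median log2 fold change of the sterol branch was -0.27 at PT20ppm and -0.14 at PT40ppm, and that of the fatty acid branch -0.07 and -0.24.

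PT80ppm was also compared with PT40ppm, which leaves the control mice out. Of the 41 members 16 differed, 15 lower and 1 higher (Lpin1), against 15.6% of all genes, and 10 of the 16 were sterol members. The log2 difference (PT80ppm minus PT40ppm) was -1.05 (SE 0.20, edgeR adjusted p = 0.000109) for Dhcr7. It was -0.99 (SE 0.19, edgeR adjusted p = 0.000146) for Elovl5 and -1.05 (SE 0.22, edgeR adjusted p = 0.000441) for Cyp51. Lpin1 was higher, at 2.001 (SE 0.44, edgeR adjusted p = 0.00089), from 75.5, 178 and 782 CPM at PT40ppm. Srebf2 passed here, at -0.67 (SE 0.24, edgeR adjusted p = 0.0448), with 1.95, 2.95 and 3.10 CPM at PT40ppm. Without both block 1 mice of PT80ppm 5 members differed, and 4.67% of all genes.

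A slope per doubling of dose was fitted over the 3 PT groups without the control mice. It passed in 19 members, 17 downward and 2 upward (Lpin1 and Dgat2), against 21.9% of all genes. The steepest downward slopes were those of Pnpla3, at -1.45 (SE 0.28, edgeR adjusted p = 6.99e-05) per doubling, and Scd1, at -1.02 (SE 0.18, edgeR adjusted p = 2.28e-05). Elovl5 was at -0.58 (SE 0.10, edgeR adjusted p = 5.56e-06) and Dhcr7 at -0.54 (SE 0.10, edgeR adjusted p = 3.81e-05). Upward, Lpin1 was at 0.96 (SE 0.22, edgeR adjusted p = 0.001). The slope of Scd1 came with medians of 304 CPM at PT20ppm, 203 CPM at PT40ppm and 59.5 CPM at PT80ppm, whereas the median of Dhcr7 was 31.1, 29.9 and 17.4 CPM, a step at the highest dose. Without both block 1 mice of PT80ppm the slope passed in 9 members, all among the 19, and in 11.3% of all genes. Over the 3 PT doses jointly against control, 18 members differed, against 19.6% of all genes, and without these mice 10 did, all among the 18, against 7.72% of all genes.

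In the FT groups the fatty acid members were mostly above control, but only 1 value passed the test. This was not particular to FT. At MT10ppm, MT25ppm and MT50ppm 17, 16 and 17 of 19 were positive, with medians of 0.29, 0.21 and 0.14. At MT100ppm 7 of 19 were. All these groups share the same control mice, and the members vary together, so the counts are not separate pieces of evidence. At FT2.5ppm and FT5ppm all 19 fatty acid members had positive log2 fold changes, with medians of 0.55 and 0.69, where 50.2% and 50.96% of all genes were positive. At FT10ppm 18 of 19 were positive, with a median of 0.41 and 48.7% of all genes positive. None passed edgeR's test at FT2.5ppm, where 0.00960% of all genes did, or at FT5ppm, where 0% did. An unadjusted p under 0.05 was reached, in the positive direction, by 10 fatty acid members at FT2.5ppm, 15 at FT5ppm and 8 at FT10ppm, against 5.56%, 3.56% and 8.87% of all genes in that direction. In either direction 10.7%, 7.59% and 17.7% of all genes reached it. The sterol branch had medians of 0.08, -0.11 and 0.02 in these groups. DESeq2 and limma called no member at FT2.5ppm and FT5ppm, and each gave 15 fatty acid members with an unadjusted p under 0.05 at FT5ppm.

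At FT2.5ppm the lowest p were those of Elovl5 (0.68, SE 0.19, edgeR adjusted p = 0.185), Fads1 (0.49, SE 0.14, edgeR adjusted p = 0.185) and Dgat2 (0.32, SE 0.09, edgeR adjusted p = 0.185). Elovl5 lay at 248, 351 and 562 CPM there, above the control median of 215 CPM in all 7 mice but overlapping the control range. At FT5ppm they were those of Pnpla3 (1.61, SE 0.49, edgeR adjusted p = 0.334), Acly (0.82, SE 0.28, edgeR adjusted p = 0.41) and Acacb (0.80, SE 0.29, edgeR adjusted p = 0.441). Pnpla3 ranged widely there, over 16.98, 51.7 and 117 CPM, against 9.25, 13.2 and 32.6 CPM in control. FT5ppm replicate 1, with 29.3 CPM of adipocyte markers, was left out in an alternative chosen after the values were seen. No member passed without it, 14 fatty acid members had an unadjusted p under 0.05, all positive, and their median was 0.65.

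Elovl5 rose at FT10ppm, the 1 member called in a group other than PT80ppm. It lay at 205, 384 and 459 CPM, against 173, 215 and 344 CPM in control, with a log2 fold change of 0.68 (SE 0.19, edgeR adjusted p = 0.0497). Its adjusted p lay between 0.0170 and 0.153 over 8 other settings, and it passed with DESeq2 and not with limma. Scd1 lay at 387, 803 and 985 CPM against 176, 274 and 603 CPM in control, with 0.98 (SE 0.36, edgeR adjusted p = 0.125). No member was free of overlap with control but Mvk, which was lower in all 7 FT10ppm mice at 8.93, 9.49 and 10.9 CPM and did not pass at -0.52 (SE 0.20, edgeR adjusted p = 0.148), while 0.490% of all genes did not overlap.

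At FT20ppm the medians were closer to 0. The fatty acid branch had a median of 0.09 and the sterol branch of -0.18, no member passed, as no gene did (0%), and 1 member had an unadjusted p under 0.05 against 3.98% of all genes. DESeq2 and limma called none there, with 1 and 2 members at an unadjusted p under 0.05. The lowest p were those of Mvk (-0.44, SE 0.19, edgeR adjusted p = 0.999), Stard4 (0.53) and Srebf1 (-0.45). The slope per doubling over the 4 FT doses was negative in all 19 fatty acid members and 9 had an unadjusted p under 0.05, against 7.22% of all genes. None passed with adjustment, by edgeR, DESeq2 or limma, and 0% of all genes did. The lowest p were those of Dgat2 (-0.10, SE 0.03, edgeR adjusted p = 0.561), Srebf1 (-0.38) and Acly (-0.27). Over the 4 FT doses jointly no member differed from control by edgeR, DESeq2 or limma, where by edgeR 0.0768% of all genes did, and 15 had an unadjusted p under 0.05 against 14.8% of all genes.

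No member passed in any MT group, by edgeR, DESeq2 or limma. At MT10ppm 0% of all genes passed and 9.97% had an unadjusted p under 0.05, among them 3 members: Elovl5 (0.47, SE 0.19, edgeR adjusted p = 0.391), Fads1 (0.32) and Mvk (-0.41). At MT25ppm the shares were 0% and 5.79%, with 1 member at an unadjusted p under 0.05. The lowest p were those of Acacb (0.63, SE 0.29, edgeR adjusted p = 0.85), Acly (0.54) and Pnpla3 (0.91). At MT50ppm they were 0.00960% and 3.99%, with no member. The lowest p were those of Mvk (-0.36, SE 0.20, edgeR adjusted p = 0.999), Mlxipl (0.23) and Elovl5 (0.31).

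At MT100ppm 0.0768% of all genes passed and 13.7% had an unadjusted p under 0.05, among them 4 sterol members, all lower, and 1 fatty acid member, higher. Dhcr7 lay at 20.3, 27.3 and 37.8 CPM against 26.7, 39.5 and 53.4 CPM in control, at -0.55 (SE 0.19, edgeR adjusted p = 0.178). Nsdhl followed at -0.62 (SE 0.24, edgeR adjusted p = 0.237) and Dgat2 at 0.20 (SE 0.09, edgeR adjusted p = 0.294). The sterol branch had a median of -0.28, with 18 of 22 members below 0, and the fatty acid branch of -0.11. The slope over the 4 MT doses passed in no member and 0.0288% of all genes, and 6 members had an unadjusted p under 0.05 against 5.23% of all genes. The lowest p were those of Acacb (-0.19, SE 0.08, edgeR adjusted p = 0.873), Dhcr7 (-0.12) and Scd1 (-0.22). Over the 4 MT doses jointly no member differed from control, where 0.0864% of all genes did and 9.21% had an unadjusted p under 0.05, with 1 member, Acacb, among them.

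The regulators are given side by side over the groups. Median Srebf1 lay between 0.685 CPM (PT20ppm) and 1.63 CPM (FT2.5ppm), with 1.49 CPM in control. Median Srebf2 lay between 1.93 CPM (PT80ppm) and 3.01 CPM (FT10ppm), with 2.57 CPM in control. Median counts were 9 to 19 for Srebf1 and 21 to 35 for Srebf2, so that single mice vary with counting. Median Mlxipl lay between 18.45 CPM (FT10ppm) and 28.5 CPM (FT5ppm), and median Insig1 between 72.9 CPM (PT80ppm) and 198 CPM (FT5ppm). Against control none of these 4 passed in any group, except Insig1 at PT80ppm. In the edgeR model, which takes account of block and isolator, the fold change on the log2 scale was below 0 in all 11 groups for Cyp51, Dhcr7, Fdft1, Mvk and Sqle and above 0 in all 11 for Mlxipl and Stard4. The medians of CPM, which are not adjusted, do not all share these directions, as for Mlxipl at FT10ppm (18.45 CPM against 19.7 CPM in control). Since the 11 comparisons share 7 control mice, a low or high control group and an effect of the doses cannot be told apart here. Mvk, the mevalonate kinase, had log2 fold changes between -0.59 and -0.22 over the 11 groups.

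Different OPPs were set against each other at the 2 doses they shared in ppm, without control mice. The 3 compounds are thiophosphate esters. FT and MT carry methyl and PT ethyl ester groups, and the leaving group is a thioether-substituted phenol in FT, a thiadiazole in MT and a nitrophenol in PT. Between FT10ppm and MT10ppm no member differed by edgeR, DESeq2 or limma, and no gene of all (0%), with no member but 7.65% of all genes at an unadjusted p under 0.05. The log2 differences (FT10ppm minus MT10ppm) ran from -0.33 to 0.50, the lowest p being those of Me1 (0.50, SE 0.29, edgeR adjusted p = 0.693), Dhcr7 (-0.33) and Gpam (0.36). Their 95% intervals reached from 0.18 (Dgat2) to 0.95 (Pnpla3) on either side, with a median of 0.49, so that differences of that size cannot be seen at this depth of replication. Between FT20ppm and PT20ppm no member and no gene differed (0%), with 3.40% of all genes and no member at an unadjusted p under 0.05. The differences (FT20ppm minus PT20ppm) ran from -0.24 to 0.52, with intervals of 0.18 (Dgat2) to 0.99 (Pnpla3) on either side and a median of 0.50. The lowest p were those of Scd1 (0.52, SE 0.36, edgeR adjusted p = 0.999), Elovl6 (0.38) and Fads2 (0.22). With p adjusted over both pairs together, the lowest among the members was 0.921. Other doses were not matched and are not compared.

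Over all 12 groups jointly, 24 members differed, against 20.3% of all genes, and the fatty acid branch took the larger share, with 15 of 19 members against 9 of 22 of the sterol branch. Elovl5 (edgeR adjusted p = 1.82e-09) and Scd1 (5.97e-08) had the lowest p. Scd1 spanned group medians from 59.5 CPM at PT80ppm to 803 CPM at FT10ppm, with 274 CPM in control. Pnpla3 spanned 3.55 CPM at PT80ppm to 51.7 CPM at FT5ppm, with 13.2 CPM in control. Without both block 1 mice of PT80ppm 17 members differed, 16 of them among the 24, against 11.9% of all genes.

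The authors' table of values adjusted for block and isolator gave far more calls. By 1-way ANOVA on these values, 36, 38 and 38 of the 41 members differed over the FT, MT and PT doses. Of all 11064 genes with such values, 68.9%, 79.4% and 64.6% did. With a change of at least 2-fold added, 7 members passed for FT, 6 for MT and 19 for PT, against 9.93%, 7.90% and 9.39% of all genes. For PT these were 6 sterol and 13 fatty acid members. In these values the means of the mice of 1 block and isolator within a group fell on the group mean, with a median distance of 9.52e-07 against 0.121 for log2(CPM + 1) over the 11064 genes. The median SD within groups was 0.222 against 0.271. These calls are therefore not set beside the count results as support.

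Members varied together between mice of a group. After group, block and isolator were taken out, the median Pearson's r over 84 mice was 0.54 among the 231 sterol pairs, 0.50 among the 171 fatty acid pairs and 0.24 between the branches, against 0.05 among all genes tested. Without the 7 PT80ppm mice these were 0.48, 0.56, 0.28 and 0.05. Hmgcs1 with Fdft1 had an r of 0.91 and Idi1 with Msmo1 0.91. Over all 84 mice Ebp ran against its branch, with an r of -0.32 with the mean of the other sterol members. With Fdft1 its r was -0.57, and Srebf2 stood apart from the branch mean at -0.02. At PT80ppm mean Ebp was 72.1 CPM in block 1 against 36.9 and 41.7 CPM in blocks 3 and 4, whereas most sterol members were lowest in block 1. The r of single members and pairs were not taken without the PT80ppm mice. Lpin1 followed the fatty acid branch weakly, at 0.22, while Fasn was at 0.91. These values share libraries, depth and probe chemistry and are a description. The members were also among the more variable genes: 36 of 41 lay above the 75th percentile of the residual SD of all genes, Pnpla3 at percentile 99.6, Lpin1 at 99.5 and Dgat2 lowest at 17.9.

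**Figure D5:**
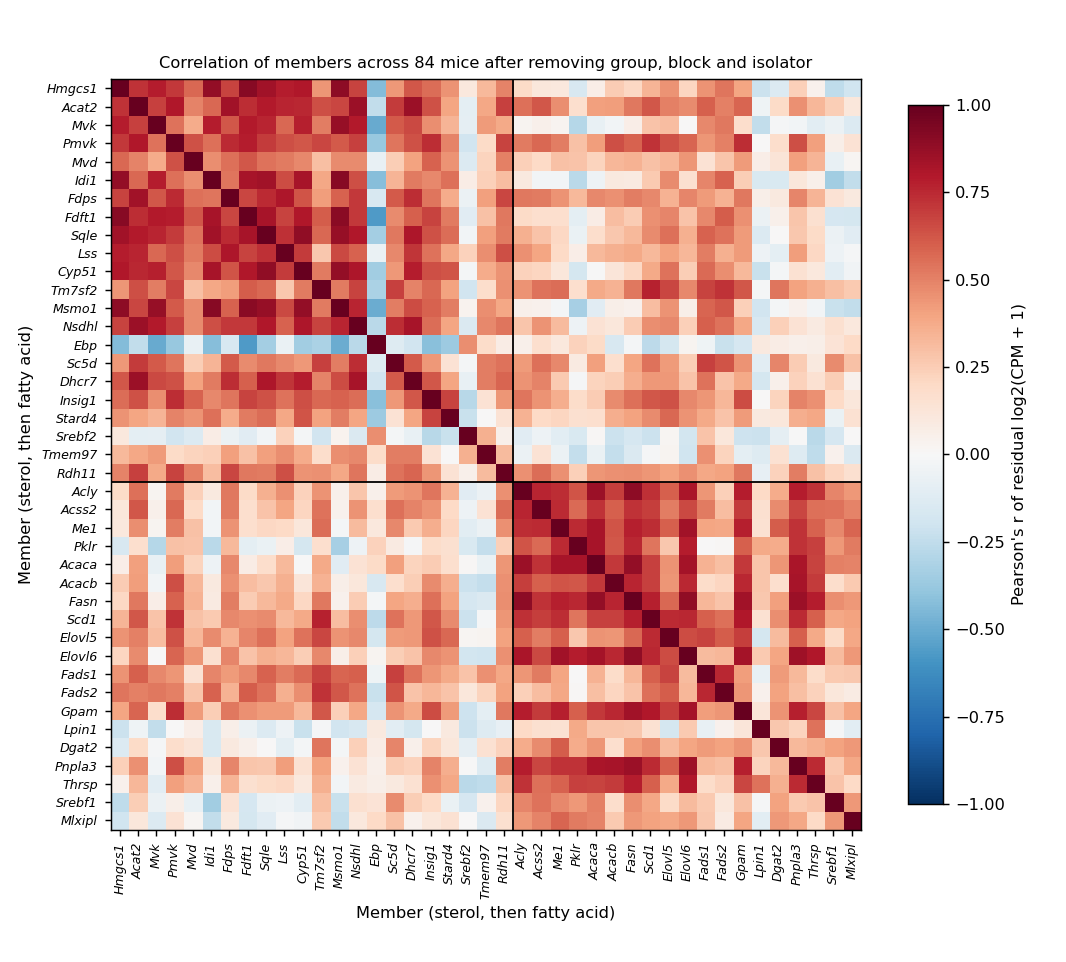
Pearson's r (colour) between members (both axes, sterol first, then fatty acid) of log2(CPM + 1) over 84 mice after group, block and isolator were removed. Blocks of high r appear within each branch, with medians of 0.54 and 0.50 against 0.24 between them, and Ebp, Srebf2 and Lpin1 stand out from their branches.

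The 2 listed genes under the count limit were Hsd17b7, a sterol ketoreductase with a median count of 0, and Slc13a5, the citrate transporter of the liver cell membrane, with a median count of 6. In a fit without the limit, Slc13a5 fell at PT80ppm, with a log2 fold change of -1.92 (SE 0.61, edgeR adjusted p = 0.0297), from 0.156, 0.933 and 4.73 CPM in control to 0, 0.216 and 0.840 CPM. Several of these mice are under the floor of 3 counts. Hsd17b7 was under the floor in all control and PT80ppm mice, so no fold is given. Among the 41 members, counts of 25 were not whole numbers in some mice, since the authors' software shares reads between features, and for 15 this held in over 50% of mice, among them Hmgcs1, Idi1, Sqle, Fasn, Elovl5 and Gpam.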

How the data were processed

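Liver RNA of 84 mice was measured by TempO-Seq. After trimming, reads were mapped to mm39 by STAR and assigned to Ensembl 106 genes with Partek's expectation maximisation. The authors deposited estimated counts per gene and mouse without normalization (18.0% of values not whole). A second table of log2 values, entered as a score, was deposited by the authors after adjustment of log2(CPM + 1) for block and isolator, for 11064 genes. No column of per-mouse values was left unused (0). Gene symbols came from GENCODE 39, which named 17660 of 17695 identifiers. The members and all gene lists were chosen with earlier results of these data known.

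Estimated counts were rounded, scaled by TMM and fitted with edgeR 4.0.16 (R 4.3.3) by quasi-likelihood, as group plus block plus isolator, over the 10415 genes with a median count above 8, in 84 mice. Tests were 2-sided and p was adjusted over all genes with a threshold of 0.05. A joint test of all doses of an OPP and a slope per doubling of dose used the same model. CPM were taken from unrounded totals, which were 6950381 to 15300589 counts per mouse, and precision of low values is limited by a floor of 3 counts. DESeq2 1.42.0 and limma 3.58.1, other normalization and filters, fits without covariates, with EA mice, with 1 OPP and without each mouse were alternatives. Tests were checked on simulated counts, drawn independently for each gene and mouse without block or isolator effects. That check does not cover mice that stand apart in many genes at once. Promoter windows were RefSeq's and motifs were searched on both strands with Python 3.11.15. Full statistics were given for members that passed, at most 20 a comparison by adjusted p; where none passed, the 3 of lowest p were given by value. Srebf1, Srebf2, Mlxipl and Insig1 were always given, and at most 6 genes of a further list.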

Additional observations from a re-analysis of the deposited data

Results flagged for a closer look

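In groups of 7 mice, single values far from the others were sought by Dixon's criterion in control and PT80ppm for the 26 members called there and for Srebf1, Srebf2 and Mlxipl, and in all 12 groups for the median of each branch. Of 82 such groups 11 met it. The criterion's rate of about 1 in 20 holds for independent, normally distributed values. These groups share mice, and the members vary together, so no excess is read from the count. In control the lone values were 83.8 CPM for Lss, 97.3 CPM for Gpam and 4.98 CPM for Srebf1. At PT80ppm replicate 3, of block 3, was the lone high mouse for Acat2 (83.9 CPM), Dhcr7 (33.5 CPM), Acss2 (6.16 CPM), Acacb (5.19 CPM), Scd1 (243 CPM) and Gpam (77.3 CPM), and the lone low mouse for Srebf2 (0.176 CPM). The mouse thus lay at control levels in members of both branches, and without it 30 members and 19.3% of all genes changed, against 26 and 18.6% with it. Replicate 1 was the lone low mouse for Fads2 (156 CPM).

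By edgeR's test of the difference, 16 members differed between PT80ppm and PT40ppm. Outside the measured members, the summed adipocyte markers reached 29.3 CPM in an FT5ppm mouse and 9.19 CPM in a PT80ppm mouse, above the 0.534 CPM of the highest control mouse, and their part in the results was not tested. Slc13a5, a listed gene under the count limit, had a log2 fold change of -1.92 at PT80ppm in the fit without that limit.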

How the results depend on the processing

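Of 208 recomputed summary values 188 stayed within 1.5 times the reported one. Values of 0 that stayed 0 count among these, and many of the reported values were 0. The number is therefore no measure of how firm the calls are. At FT10ppm the 1 call (Elovl5) became 0 without the count filter, with EA mice only, with limma and with control and FT mice only. At PT80ppm 26 calls became 13 without both block 1 mice and 11 with blocks 3 and 4 only, both chosen after seeing the data. Of all genes 8.50% and 7.11% were called there, against 18.6% as fitted. The sterol calls, 15, became 9 with control and PT mice only, 6 and 4 in those added settings, and 9 to 18 on leaving out each mouse, 9 being without PT80ppm replicate 1 or 2. The fatty acid calls, 11, became 7 in both added settings and 8 to 13 on leaving out each mouse, and all calls together 20 to 30. For most other settings the share of all genes is not given. From the member counts alone, a general loss of calls in these settings cannot be told from a loss in the members. Without both block 1 mice the joint PT test gave 10 and the PT slope 9. PT80ppm against PT40ppm gave 10 without covariates and 5 without those mice. The adjusted values gave 36, 38 and 38 for FT, MT and PT. For Srebf1 at PT80ppm, 0.01 as fitted, the sign turned with DESeq2 (-0.030), without covariates (-0.51), with EA mice (-0.21), with PT and control mice only (-0.18), without both block 1 mice (-0.10), with blocks 3 and 4 (-0.29) and on leaving out single mice (-0.17 to 0.17). Of the other values for single members 72 lost the call and 583 kept it or stayed uncalled. Calls were lost most often for Insig1 (11 of 23 settings), Idi1 (10), Lss (8), Mvk (8) and Hmgcs1 (7). Except where fewer mice or genes entered, the cause was not tested. No paired analysis was possible because the labels number single animals and no number pairs mice across groups; block was a covariate throughout. Depth limits Srebf1, Mvd, Stard4, Srebf2 and Rdh11, the members tested whose median counts per mouse were lowest, from 12 to 35.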
